A study of Arabidopsis thaliana with 12 samples.

Results

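The transcriptomes of whole inflorescences and of rosette leaves of wild-type Arabidopsis thaliana were compared gene by gene. Both organs came from plants of the Landsberg erecta (Ler) background without any treatment, so genotype was the same on both sides and the organ sampled was the labelled difference. Differences in plant age, harvest time or batch between the organs were not checked. Every gene identifier with a level of at least 5 FPKM in either organ was kept, after rows of a repeated identifier had been summed. FPKM, fragments per kilobase of transcript scaled to the mapped fragments of a library, is a level already divided by transcript length, so levels of different genes can be set side by side. This gave 18103 genes of 33559 in the table, or 53.9%, of which 17524 were annotated as protein-coding.

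The series holds 12 libraries of stranded, poly(A)-selected RNA, 3 in each of 4 groups. The leaves were rosette leaves of plants that were already flowering. The inflorescences were main inflorescences taken whole, with every flower past stage 12 removed, so they held the inflorescence meristem, floral meristems, flower buds up to the last stages before opening, and young stem. The other groups were shoot apices sampled on day 0 and on day 2 of dexamethasone treatment from the line ap1 cal 35S::AP1-GR. In that line a fusion of APETALA1 to a glucocorticoid receptor is driven by the constitutive 35S promoter, in a double mutant that forms masses of meristems in place of flowers. The apices differ from both wild-type organs in genotype, and their levels are given only for orientation. In the authors' table each group has 1 column, in which its 3 libraries are merged. No standard deviation, interval or p-value can be had from it, the spread between libraries is unknown, and every difference given here lacks a check against replicates.

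A rosette leaf consists largely of mature mesophyll, whose cells have left the cell cycle and carry the photosynthetic apparatus, together with epidermis, guard cells and veins. An inflorescence holds dividing meristem cells and a series of buds in which sepals, petals, stamens and carpels are specified by combinations of MADS-domain transcription factors. Inside the anthers the tapetum, a secretory cell layer, feeds the developing pollen and makes much of its wall and coat. In such bulk samples a lower level can come from fewer cells of a type or from less RNA per cell, and these cannot be told apart.

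Markers of the labelled organs were checked first. The floral identity genes AP3, PI and AG stood at 173, 166 and 58.3 FPKM in inflorescences and at 0.170, 0.123 and 1.59 FPKM in leaves. The tapetum marker AMS stood at 63.7 against 0.142 FPKM, the pollen marker AGP6 at 139 against 1.24 FPKM, the meristem marker STM at 41.2 against 0.159 FPKM and the ovule marker STK at 32.9 against 0.0116 FPKM. The stem cell gene CLV3 was near 0 in both organs, at 0.0768 FPKM in inflorescences and 0.0772 FPKM in leaves, whereas it stood at 8.80 FPKM in day-0 apices. On the leaf side the mesophyll marker GDCH stood at 1011 FPKM in leaves and 479 FPKM in inflorescences, the guard cell gene KAT1 at 42.4 against 9.14 FPKM and the phloem companion cell gene SUC2 at 378 against 61.8 FPKM. Inflorescences therefore also held RNA of green tissue, guard cells and phloem at lower levels. The other mesophyll markers of the check were less clear. RBCS1A was listed at 0 in leaves against 8661 FPKM in inflorescences, and LHCB2.1 differed less between the organs than GDCH. Root markers were low in both organs, with RHD6 at no more than 0.0274, EXP7 at no more than 0.0586 and PYK10 at no more than 1.48 FPKM. Some pollen genes were above 0 in the leaf column, with AGP23 at 3.79 and VGD1 at 1.46 FPKM against 538 and 291 FPKM in inflorescences, and their part in the leaf values of other genes was not tested.

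A gene was called higher or lower in inflorescences when log2(FPKM + 1) differed by at least 1, a 2-fold difference on that scale. By this rule 3807 genes were higher, 21.0% of all kept genes, and 4203 were lower, 23.2%, so 47.5% of the calls lay on the higher side. The median difference over all kept genes was -0.09 on the log2 scale, and 33.6% of the genes lay within 0.5 of 0. This split rests on how the columns were scaled. The FPKM values summed to 1283887 in leaves and to 925754 in inflorescences, and after division of each column by its upper quartile 65.0% of the calls fell on the higher side, with 5381 genes higher and 2896 lower and a median difference of 0.35. Rescaling both columns to the same sum gave 65.8% and a median of 0.38. These scalings move all genes almost alike, so they carry genes across the rule but not from 1 direction to the other. Fold values divide 1 FPKM level by the other, and where the lower value is far below 1 FPKM they rest on an unknown number of reads.

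**Figure D1:**
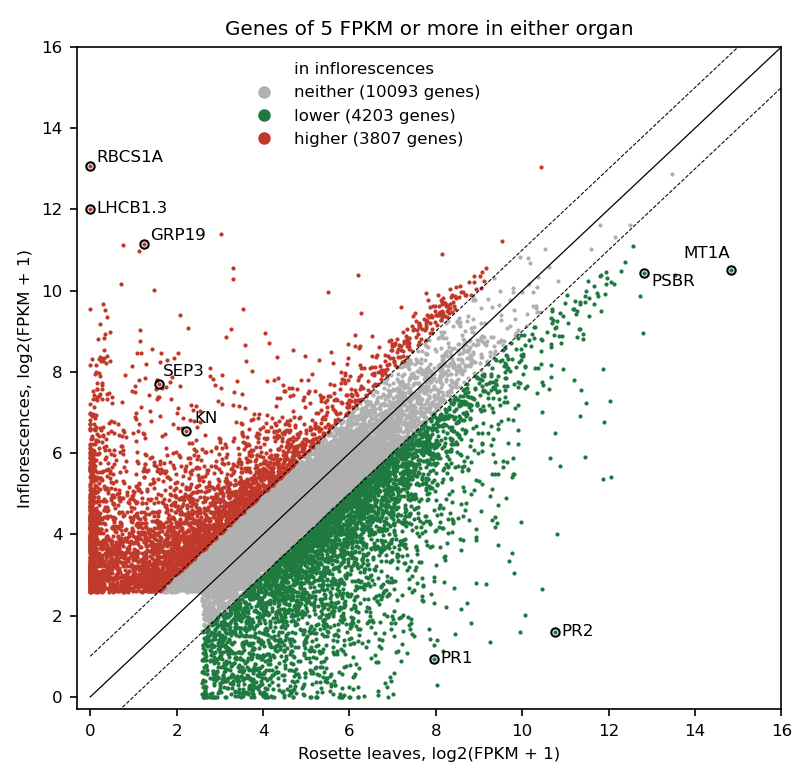
Level of each of the 18103 kept genes in rosette leaves (x axis) and in inflorescences (y axis), both as log2(FPKM + 1), with 1 merged value per organ. The solid line marks equal levels and the dashed lines the 2-fold rule. Red points are the 3807 genes called higher in inflorescences, green points the 4203 called lower and grey points the 10093 called neither way, and the labelled circles RBCS1A and LHCB1.3 at the left edge are listed at 0 in leaves.

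The direction of the calls moved with the level of the genes. Among the 2705 genes whose higher value was between 5 and 10 FPKM, 37.4% were higher in inflorescences and 12.9% lower. Among the 5170 genes that reached 50 to 500 FPKM, 14.8% were higher and 37.0% lower, and among the 454 genes that reached 500 FPKM or more, 27.1% were higher and 52.0% lower. Of the genes, 13742 reached the floor of 5 FPKM in both organs, 2824 in inflorescences only and 1537 in leaves only. A gene that reached it in 1 organ only is high there by construction, and 2463 and 1321 of these were called, so the counts of list members that passed the floor are descriptions only. The 292 genes just inside the floor, up to 5.5 FPKM, had a median difference of 0.71, and the 320 genes just outside it, down to 4.5 FPKM, one of 0.65. Within 0.1 of the 2-fold rule 632 genes lay inside and 669 outside.

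Of the kept genes, 250 were listed at 0 in either organ, 213 of them in leaves and 37 in inflorescences. Some of these zeros stood against very high values elsewhere. RBCS1A (AT1G67090), a small subunit gene of Rubisco, the carbon-fixing enzyme, stood at 8661 FPKM in inflorescences and 2493 FPKM in day-0 apices and was listed at 0 in leaves. LHCB1.3 (AT1G29930), which encodes a chlorophyll-binding protein of the photosystem II antenna, was likewise listed at 0 in leaves, against 4113 and 1556 FPKM. Both belong to families of near-identical copies, and no fold is given for them. They were 2 of the 4 genes listed at 0 in leaves with at least 100 FPKM in the 3 other groups, the others being the tRNA genes AT1G28820 and AT1G15090. Further genes listed at 0 in leaves were LCR66, for a small cysteine-rich secreted protein, at 111 FPKM in inflorescences, and the uncharacterised AT1G26720 and AT1G28375 at 126 and 104 FPKM. Short loci such as AT4G04078, at 744 FPKM over an annotated length of 108 nt, have uncertain FPKM. On the other side AT2G18680, an uncharacterised protein-coding gene, stood at 118 FPKM in leaves and was listed at 0 in inflorescences, as were the precursors MIR160c and MIR156d at 55.7 and 54.0 FPKM.

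Floral organ identity genes lay on the inflorescence side. Of 14 genes of floral meristem and organ identity, 12 reached the floor, 9 were higher in inflorescences with none lower, at a median difference of 4.28 against -0.09 over all kept genes. AP3 (AT3G54340) and PI (AT5G20240), which together specify petals and stamens, were 1019-fold and 1355-fold higher. AP1 (AT1G69120), a meristem and sepal identity gene, stood at 0.429 FPKM in leaves and 151 FPKM in inflorescences. Its close relative CAL stood at 8.21 FPKM in inflorescences and was listed at 0 in leaves. SEP3, a cofactor whose protein binds the other floral MADS proteins into complexes, stood at 1.99 FPKM in leaves and 207 FPKM in inflorescences, the highest inflorescence level of the list. The members called neither way were AP2, SEP4 and FUL. AP2, which acts in sepals and petals, stood at 17.6 and 25.0 FPKM in leaves and inflorescences, SEP4 at 18.5 and 16.5 FPKM, and FUL, a fruit and meristem identity gene, at 88.6 and 65.4 FPKM. LFY and UFO, which switch on floral identity in very young flowers, stayed under the floor at 3.31 and 0.673 FPKM in inflorescences, while day-2 apices held 158 and 64.1 FPKM.

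Carpel and ovule genes followed the same direction. Of 20 genes for carpel, ovule and style development 17 reached the floor, 13 were higher and 1 lower, with a median of 2.18. CRC, a YABBY gene of carpels and nectaries, stood at 0.0167 FPKM in leaves and 48.6 FPKM in inflorescences. STK, which gives ovules their identity, stood at 0.0116 and 32.9 FPKM, and the fruit patterning genes SHP1 and SHP2 at 0.295 and 0.0737 FPKM in leaves and 27.5 and 11.4 FPKM in inflorescences. HEC3, which acts in the transmitting tract, stood at 12.5 FPKM and was listed at 0 in leaves. INO, a gene of the outer ovule integument, was also listed at 0 in leaves, against 8.64 FPKM. The gene called lower was BEL1, a homeobox gene of integument development, at 44.2 FPKM in leaves and 9.02 FPKM in inflorescences.

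Genes that act in anthers were next. Among 16 regulators of anther and tapetum development, 11 reached the floor, 8 were higher and 1 lower, with a median of 3.39. AMS, a bHLH factor of the tapetum, was 447-fold higher in inflorescences at 63.7 FPKM. The factor gene MS1, which acts late in the tapetum, stood at 9.50 FPKM and was listed at 0 in leaves. MYB21 and MYB24, which drive filament growth and anther opening under jasmonate, were at 0.166 and 0.173 FPKM in leaves but 41.3 and 16.4 FPKM in inflorescences. The receptor kinase gene EMS1, required to form the tapetum, stood at 16.3 against 0.292 FPKM, whereas TPD1, which encodes its ligand, was the member called lower, at 9.61 FPKM in inflorescences against 40.1 FPKM in leaves. The receptor and its ligand thus lay on opposite sides. MYB33 and MYB65 were called neither way.

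Genes for the outer pollen wall were higher almost throughout. Of 17 listed, 16 reached the floor and 15 were higher, with a median of 5.86. The wall polymer sporopollenin is built from fatty acids in the tapetum, and genes of several of its steps are given, not in pathway order. ACOS5, the acyl-CoA synthetase, stood at 0.0476 FPKM in leaves and 162 FPKM in inflorescences. The cytochrome P450 genes CYP703A2 and CYP704B1, which hydroxylate the fatty acids, were at 64.2 and 69.3 FPKM against leaf levels of 0.0347 and 0.158 FPKM. LAP5 and LAP6, the polyketide synthases, were at 176 and 206 FPKM against leaf levels of 0.303 and 6.39 FPKM, and TKPR1, the reductase that acts next, at 217 against 9.61 FPKM. MS2, a fatty acyl reductase, was at 124 against 0.0382 FPKM. The largest difference of the group was that of MEE48, the RefSeq symbol of the tapetal glucanase gene A6, at 254 against 0.0994 FPKM. DEX1, called neither way, stood at 24.3 and 20.5 FPKM.

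All 12 pollen coat genes reached the floor and were higher, with a median of 8.34, the highest of the lists. GRP19 (AT5G07550), an oleosin-type glycine-rich protein gene, stood at 1.37 FPKM in leaves, 2260.2 FPKM in inflorescences and 0.729 and 0.0196 FPKM in the apices at day 0 and day 2. LTP12, a lipid transfer protein gene of the tapetum, stood at 0.630 and 1138 FPKM in leaves and inflorescences, a 1805-fold difference. GRP17, the major oleosin of the coat, stood at 0.260 and 738 FPKM. EXL4, an extracellular lipase gene, stood at 449.5 against 0.133 FPKM, and ATA27, a tapetal glycosyl hydrolase gene, at 581 against 0.160 FPKM. In the apices the 12 genes were nearly silent, with no value above 0.729 FPKM.

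Genes of the pollen grain and tube were high as well. Of 29, 21 reached the floor, 19 were higher and 1 lower, with a median of 4.03. PPME1, a pectin methylesterase of the pollen tube, was 1016-fold higher at 212 FPKM, and its relatives VGD1 and VGDH1 stood at 291 and 55.4 FPKM against leaf levels of 1.46 and 0.769 FPKM. The arabinogalactan protein genes AGP6, AGP11 and AGP23 stood at 139, 81.8 and 538 FPKM in inflorescences. The member called lower was SUC1, a sucrose transporter gene, at 76.8 FPKM against 195 FPKM in leaves. The 8 members under the floor stayed below 5 FPKM in both organs. MYB97, a factor gene of the growing pollen tube, was among them at 0.571 FPKM in inflorescences.

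Meiosis genes were low in both organs. Of 21, 8 reached the floor, 4 were higher and none lower. They were DMC1, the meiotic strand-exchange protein, at 20.1 against 0.929 FPKM, the cell cycle regulators OSD1 at 13.8 against 0.769 FPKM and TAM at 6.04 against 0.971 FPKM, and PRD3, needed for the DNA breaks of meiosis, at 12.4 against 3.72 FPKM. SPO11-1, which cuts DNA to start recombination, and the cohesin gene REC8 were under the floor at 0.937 and 2.12 FPKM in inflorescences.

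**Figure D2:**
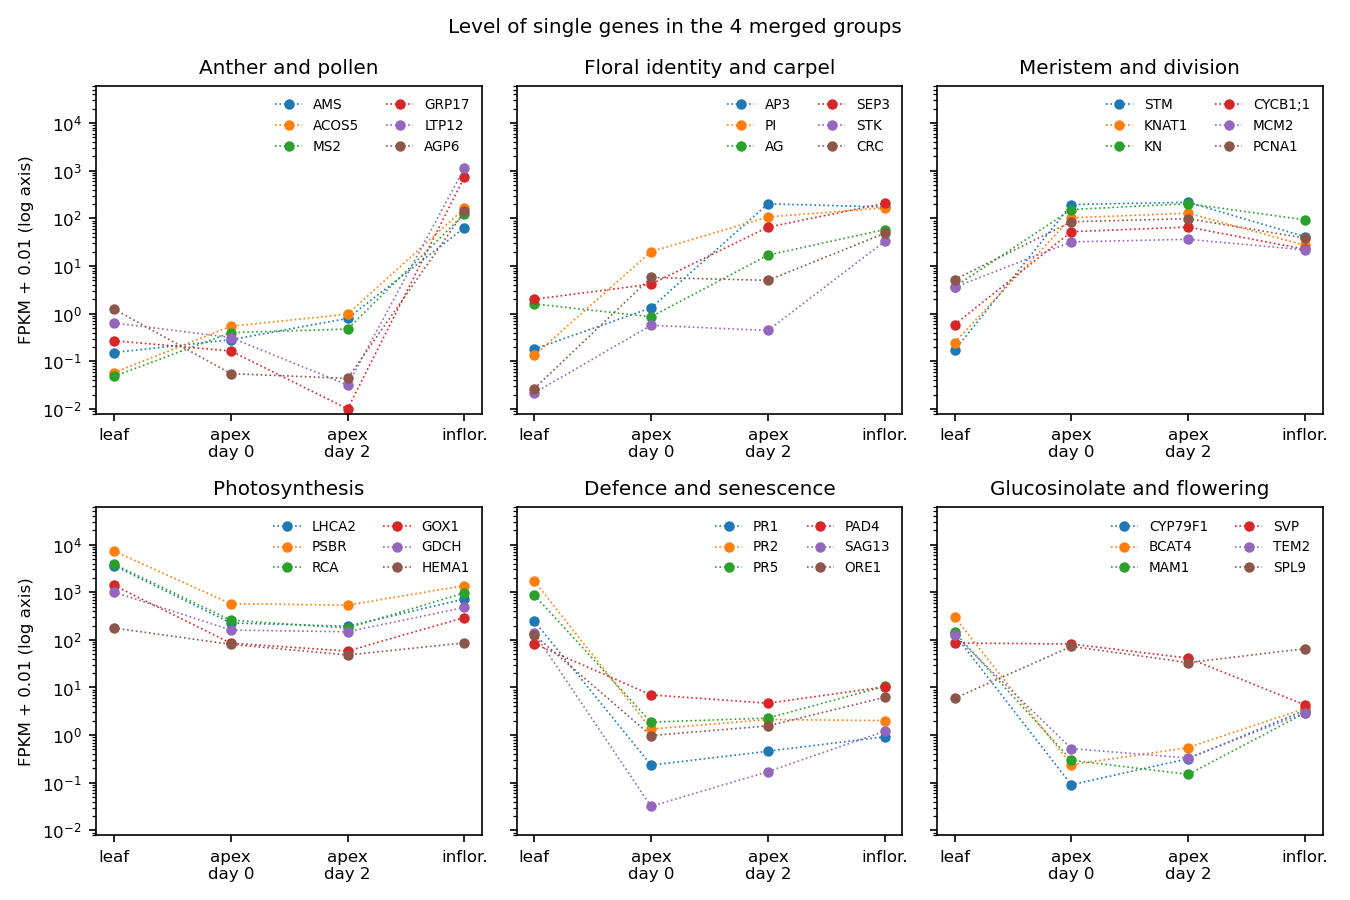
Level of 36 named genes in leaves, in apices at day 0 and day 2 and in inflorescences, 1 merged value each, on a log axis of FPKM + 0.01; dotted lines join the values of a gene and are no time course. The 6 anther and pollen genes are high in inflorescences only, where LTP12 reaches 1138 FPKM, while division and meristem genes are high in apices and inflorescences and defence genes such as PR2, at 1726 FPKM, in leaves.

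Shoot meristem genes lay on the inflorescence side. Of 20, 13 reached the floor, 10 were higher with none lower, at a median of 2.90. STM (AT1G62360), a homeobox gene that keeps meristem cells undetermined, stood at 0.159 FPKM in leaves, 41.2 FPKM in inflorescences and 195 FPKM in day-0 apices. KNAT1, KNAT2 and KNAT6 of the same class stood at 27.1, 8.49 and 13.2 FPKM in inflorescences against 0.236, 0.273 and 0.409 FPKM in leaves. WUS, which maintains the stem cells and is also active in stamens and ovules, stood at 17.8 FPKM in inflorescences and 6.91 and 13.4 FPKM in the apices and was listed at 0 in leaves. STM was thus lower in inflorescences than in day-0 apices, and WUS higher. CLV1, a receptor kinase gene that restrains stem cell number, was at 27.6 FPKM in leaves and 13.3 FPKM in inflorescences, just short of the rule on the lower side. LOF1, a MYB gene of organ boundaries, stood at 21.9 against 0.0463 FPKM.

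Genes of organ primordia and organ polarity act in young leaves and flowers alike. Of 19, 16 reached the floor, 9 were higher and 1 lower, with a median of 1.15. AS2, a polarity factor of the upper leaf side, stood at 19.0 FPKM in inflorescences against 0.935 FPKM in leaves, and FIL, a YABBY gene of the lower side of lateral organs, at 62.2 against 8.05 FPKM. JAG, which promotes organ growth, stood at 5.58 against 0.0596 FPKM. The member called lower was YAB5, at 8.77 FPKM in inflorescences against 30.5 FPKM in leaves, while its relatives YAB2 and YAB3 were called neither way at 16.9 and 37.8 FPKM against leaf levels of 13.9 and 20.7 FPKM.

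Genes of DNA replication and of mitosis were called in the higher direction only. Of 15 DNA replication genes 11 reached the floor and all 11 were higher, with a median of 2.32. The helicase subunit genes MCM2 to MCM7 stood between 2.26 and 4.72 FPKM in leaves and between 17.1 and 25.0 FPKM in inflorescences. PCNA1, the sliding clamp of DNA polymerase, stood at 5.15 and 38.6 FPKM, and CDT1A, a licensing factor of replication origins, at 2.56 and 19.5 FPKM. ORC1A, ORC2, CDC6 and CDC45 did not reach 5 FPKM in either organ.

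All 23 genes listed for mitosis and cytokinesis reached the floor and were higher, with a median of 3.37. The list includes EHD2, whose role in division was not checked. KN (AT1G08560), a syntaxin that fuses vesicles into the new cell plate, stood at 3.63 FPKM in leaves and 93.0 FPKM in inflorescences, a 25.6-fold difference. CYCB1;1, a mitotic cyclin present shortly before and in mitosis, stood at 0.577 and 22.5 FPKM. CDC20.1 and CDC20.2, activators of the complex that degrades cyclins, stood at 51.9 and 36.6 FPKM against leaf levels of 2.06 and 1.20 FPKM, with reads between these near-identical neighbours hard to assign. CDKB1;1, a plant-specific mitotic kinase, stood at 20.3 against 1.14 FPKM. In day-0 apices KN stood at 153 FPKM.

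Regulators at the entry to the cycle were split by gene. Of 17 D-type cyclins and inhibitors of cyclin-dependent kinases, all reached the floor, 10 were higher and 2 lower, with a median of 1.39. CYCD3;3 and CYCD3;1, cyclins of proliferating cells, stood at 38.2 and 40.6 FPKM against leaf levels of 1.77 and 3.90 FPKM. The inhibitor gene KRP3 was also higher, at 13.4 against 1.39 FPKM. Lower were the inhibitor gene KRP1, at 7.60 FPKM against 40.7 FPKM in leaves, and CYCD2;1, at 10.3 against 21.8 FPKM.

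Promoters of the division genes were searched for 13 short motifs, of which a few are described, chosen after their shares were seen. The 250 bases before each annotated gene start were searched on both strands in RefSeq assembly TAIR10.1, which is the Columbia reference and may differ from Ler. The core of the mitosis-specific activator element, CAACGG, which MYB3R factors bind, occurred in 11 of 23 promoters of the mitosis list (47.8%) and in 5.28% of all 27443 promoters of protein-coding genes. The 11 matches nearest to the gene start are printed because they carry that count, which includes the listed gene EHD2. Each match is written 5′ to 3′ on the strand that reads the motif, with the motif in capitals and up to 10 bases on either side within the window.
KN, chr1:2711001-2711023, minus strand: aaatggacgaCAACGGatacatc
CYCB1;2, chr5:1861704-1861724, plus strand: aattcCAACGGtcatattttt
CYCB1;1, chr4:17624354-17624379, plus strand: aaatgaacccCAACGGtctgattgtt
PLE, chr5:20964622-20964647, minus strand: aagaatatctCAACGGtagggatcta
MAD2, chr3:9503033-9503055, minus strand: gcacttgCAACGGctagtttggg
CDKB2;2, chr1:7294820-7294845, plus strand: catgttttttCAACGGttcttttttt
CYCB2;2, chr4:16901484-16901509, minus strand: aaggaaatagCAACGGctaggtgatt
PAKRP1, chr4:8165291-8165316, plus strand: aggatgaatcCAACGGagggaatgag
CYCB2;1, chr2:7663959-7663984, plus strand: cctcatgatcCAACGGttatattcta
EHD2, chr4:2804166-2804191, minus strand: tgctagcaatCAACGGctgtgatttg
NACK2, chr3:15190579-15190604, minus strand: gtctgaggcaCAACGGtcatatgcaa
The matches of KN and MAD2 lie 13 bases before the gene start, that of CYCB1;2 11 bases and that of EHD2 227 bases. In CYCB1;2, with 2.13 FPKM in leaves and 47.9 FPKM in inflorescences, in CYCB1;1, PLE, CDKB2;2, CYCB2;1 and NACK2 the core is followed by T. Some other motifs were rarer in the mitosis list than in all promoters, with the TATA box, TATAAA, in 21.7% against 47.3%. The W-box core, TTGAC, was in 30.4% against 44.9%. Others were not rarer, with the site II element, TGGGCC, in 17.4% against 13.7% and the G-box, CACGTG, in 8.7% against 6.49%. A match is a description of letters and not by itself a site of binding, and no test was run on these shares.

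In the DNA replication list the site II element, TGGGCC, was found in 8 of 11 promoters (72.7%), against 13.7% of all promoters and 17.1% of the promoters of kept genes. Site II elements occur before many genes of growing cells, ribosomal protein genes among them. The E2F motif TTTCCCGC was in 27.3% of these 11 promoters, against 0.619% of all. The matches of the replication genes are printed to show how they compare around the shared core, in capitals.
CDT1A, chr2:13328805-13328830, plus strand: caattcataaTGGGCCtaattaatgg
MCM6, chr5:18010728-18010753, plus strand: atacgtgaatTGGGCCtaaactttgg
MCM4, chr2:7130788-7130813, plus strand: acctaattccTGGGCCtattggtccc
MCM2, chr1:16970137-16970162, plus strand: tttaaacactTGGGCCgaattagtga
MCM5, chr2:3527514-3527539, plus strand: gggaaactgaTGGGCCgaacccaaga
MCM3, chr5:18773768-18773793, plus strand: agggtcatttTGGGCCgatattagtt
PCNA2, chr2:12651848-12651873, plus strand: gggtttaaatTGGGCCaaacaaacat
RNR1, chr2:9293173-9293198, plus strand: ttaatttccaTGGGCCtggtccacat
The letter after the core is T in CDT1A, MCM6, MCM4 and RNR1. CDT1A, which had the highest difference among the replication genes with a match, has the following 250 bases before its start, where capitals mark any of the 13 motifs searched.
CDT1A, chr2:13328612-13328861, plus strand: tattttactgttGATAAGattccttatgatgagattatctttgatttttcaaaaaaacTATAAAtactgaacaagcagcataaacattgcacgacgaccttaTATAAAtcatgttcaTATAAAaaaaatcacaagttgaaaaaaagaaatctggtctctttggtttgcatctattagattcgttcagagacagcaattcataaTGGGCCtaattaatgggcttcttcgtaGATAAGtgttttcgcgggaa
Besides the site II element 47 bases before the start, these capitals are matches to GATAAG, the I-box, at 238 and 20 bases, and to TATAAA, the TATA box, at 192, 148 and 133 bases.

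Genes of silencing by small RNA and DNA methylation leaned to the inflorescence. Of 26, 23 reached the floor, 9 were higher with none lower, at a median of 0.76. AGO9 and AGO5, Argonaute proteins of the germ line and its surrounding cells, stood at 50.8 and 20.2 FPKM against leaf levels of 0.0874 and 0.0193 FPKM, and AGO4, which directs DNA methylation, at 69.3 against 6.49 FPKM. AGO1, the main Argonaute of microRNAs, was at 112 and 56.2 FPKM and narrowly missed the rule. AGO2 and AGO7 were called neither way at 11.3 and 5.45 FPKM against leaf levels of 17.4 and 6.75 FPKM.

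Photosynthesis genes lay on the leaf side. Over the 4 lists of light harvesting, photosystems, Calvin cycle and photorespiration, 72 genes reached the floor and 70 of these were above 0 in leaves. Of the 70, 62 were lower in inflorescences and none higher, and the leaf level was 1.34 to 6.96 times the inflorescence level with a median of 3.07. The summed FPKM of the 72 genes made up 10.0% of the leaf column, 5.75% of the inflorescence column and 2.13% and 1.77% of the columns of day-0 and day-2 apices. For 69 of the 70 genes above 0 in leaves the order from highest to lowest was leaves, inflorescences, day-0 apices. In the sums RBCS1A and LHCB1.3 are counted with their leaf value of 0, so the leaf share leaves both out.

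Of 13 light-harvesting genes 9 were lower, with a list median of -1.66. LHCA1 to LHCA4, the antenna of photosystem I, stood at 2361, 3633, 3223 and 2817 FPKM in leaves and at 747, 720.2, 816 and 839 FPKM in inflorescences. The near-identical copies LHCB2.1 and LHCB2.2 of the photosystem II antenna stood at 174 and 256 FPKM in leaves and missed the rule at 122 and 191 FPKM, as did LHCB6 at 708 against 1360.1 FPKM. Of 26 nuclear genes for photosystem subunits and electron transport 25 were lower, with a median of -1.61, and PSBS missed the rule. PSBR, a subunit of photosystem II, stood at 7287 FPKM in leaves and 1373 FPKM in inflorescences, a 5.31-fold difference. PSBQ2, of the oxygen-evolving complex, was 4.82-fold lower and PSAE1, of photosystem I, 4.51-fold lower.

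In the Calvin cycle list 15 of 18 genes were lower, with a median of -1.41. After upper quartile scaling 9 were lower and the median was -0.98, and with columns of equal sum 8 were lower. RCA, the activase that keeps Rubisco working, stood at 3862 FPKM in leaves and 969 FPKM in inflorescences. The Rubisco small subunit genes RBCS1B and RBCS2B were lower at 389.8 and 956 FPKM against leaf levels of 1617 and 2097 FPKM, and RBCS3B missed the rule at 2097 against 3114 FPKM. How reads were divided among these copies is not known. CP12-2, a small protein that holds 2 Calvin cycle enzymes inactive in the dark, had the largest ratio of the list above 0, 6.52-fold.

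Photorespiration, which recycles the product of the oxygenase reaction of Rubisco, had 13 of 15 kept genes lower and a median of -1.80. GGT1, a peroxisomal aminotransferase, stood at 1625 FPKM in leaves and 234 FPKM in inflorescences. The glycolate oxidase genes GOX1 and GOX2 stood at 1393 and 590.5 FPKM in leaves against 294 and 163 FPKM, and CAT2, the catalase that removes the peroxide they make, at 441 against 71.2 FPKM. Among the 16 genes of chlorophyll synthesis only HEMA1, the entry enzyme, was lower, at 86.3 against 177 FPKM, and none was higher. The median of -0.42 turned to 0.00 after upper quartile scaling and to 0.03 when the columns were given the same sum. GSA1, GUN5 and CHLI1, of the next steps, stood at 90.6, 231 and 209 FPKM in leaves and 78.5, 138 and 179 FPKM in inflorescences.

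Promoters of the photosystem list held the I-box, GATAAG, in 8 of 26 cases (30.8%) against 12.3% of all promoters. It was in 4 of 13 light-harvesting promoters (30.8%) and in 6.67% of those of photorespiration. Lists outside photosynthesis reached like shares, with 38.9% of the salicylic acid and defence list and 27.3% each of the DNA replication and jasmonate lists. I-boxes are known from light-regulated promoters, but the match was not limited to such genes here. The match nearest to the start is given for 7 of these genes with the motif in capitals, to show the flanks of the motif in promoters of this list.
PSAF, chr1:11216192-11216217, minus strand: ataaataaaaGATAAGtcgtgtgtag
PSAD1, chr4:1230330-1230355, minus strand: gatttgggatGATAAGtagtaacctc
PETC, chr4:1439952-1439977, minus strand: aatttgaattGATAAGaggaaaaagg
PSAK, chr1:10722106-10722131, minus strand: ttcaactctgGATAAGactgtctcat
LFNR1, chr5:26453200-26453216, minus strand: ttaggacaatGATAAGc
PSAH2, chr1:19454704-19454729, minus strand: attataaaaaGATAAGgctatctcta
PETE2, chr1:7043514-7043539, plus strand: tttaaataaaGATAAGgttcttgaat
These genes were all lower in inflorescences, between -1.84 for PSAF and -1.43 for PETE2 on the log2 scale.

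Starch and sucrose genes were mostly lower, with 14 of 22 lower, 3 higher and a median of -1.50. The phloem-loading genes SUC2 and SWEET11, which move sucrose out of the leaf, stood at 378 and 318 FPKM in leaves and 61.8 and 30.9 FPKM in inflorescences. CWINV1, a cell wall invertase that splits sucrose outside the cell, stood at 47.1 against 3.25 FPKM. The 3 higher genes were other members of the same 2 families. CWINV4, an invertase of nectaries, stood at 33.2 against 0.00649 FPKM, CWINV2 at 7.61 against 0.0525 FPKM, and SWEET8, a sugar transporter of the tapetum, at 81.2 against 0.0149 FPKM. So different copies of the invertase and SWEET families led in each organ.

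Defence genes lay on the leaf side. Of 21 genes of salicylic acid and defence, 18 reached the floor, 17 were lower and none higher, with a median of -2.58. PR2 (AT3G57260), a glucanase that attacks fungal walls, stood at 1726 FPKM in leaves and 2.01 FPKM in inflorescences, the lowest difference of all protein-coding genes. PR1 and PR5, the other classical markers of the salicylic acid response, stood at 249 and 872 FPKM in leaves and 0.913 and 10.6 FPKM in inflorescences. Genes upstream of them are given for comparison. ICS1, which makes salicylic acid, stood at 46.3 against 3.87 FPKM, EDS1 and PAD4, which signal from immune receptors, at 88.0 and 83.0 against 23.0 and 10.3 FPKM, and NPR1, the receptor for salicylic acid, at 44.5 against 9.82 FPKM. WRKY70 was the member that missed the rule, at 296 against 154 FPKM. In day-0 apices PR2 stood at 1.33 FPKM.

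Jasmonate genes were split. Of 22, 10 were lower, 3 higher and 9 neither, with a median of -0.49. The synthesis genes AOS and LOX2 stood at 279 and 1045 FPKM in leaves and 21.6 and 347 FPKM in inflorescences. The 4 allene oxide cyclase genes, which act after AOS, did not move together. AOC2 and AOC1 were 106-fold and 48.7-fold lower at 3.98 and 2.54 FPKM, AOC3 was lower at 38.5 against 98.4 FPKM, and AOC4 was higher at 102 against 36.1 FPKM. VSP1, a storage protein gene induced by jasmonate, was higher at 1345 FPKM against 72.1 FPKM in leaves, and the third higher gene was the repressor gene JAZ10 at 37.1 against 13.8 FPKM.

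Senescence and nitrogen export genes were lower, 17 of 21 kept, with 1 higher and a median of -2.78. SAG13 and SAG21, induced in ageing leaves, stood at 139 and 3804 FPKM in leaves and 1.20 and 107 FPKM in inflorescences. The NAC factor gene ORE1, a promoter of leaf ageing, stood at 127 against 6.22 FPKM. GLN1;4, a cytosolic glutamine synthetase, was 40.0-fold lower at 6.24 FPKM. SAG12, a protease gene of advanced senescence, was under the floor in both organs at 0.0465 FPKM in leaves and 1.23 FPKM in inflorescences. SAG29, a sugar transporter gene of the SWEET family, was the member called higher, at 11.7 against 2.00 FPKM.

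Glucosinolates are sulphur-containing defence compounds of the cabbage family. Of 20 genes for them 17 were lower and none higher, with a median of -2.38. BCAT4 and MAM1, which lengthen the methionine side chain, stood at 302 and 144 FPKM in leaves and 3.62 and 2.92 FPKM in inflorescences. CYP79F1 and CYP83A1, of the core pathway from methionine, stood at 130.0 and 327 against 3.33 and 40.8 FPKM. CYP79B3 and CYP83B1, of the branch from tryptophan, stood at 84.0 and 438 against 2.54 and 19.5 FPKM. The genes that missed the rule were TGG1 and TGG2, the myrosinases that break glucosinolates down, and AOP2. TGG1 was at 847 FPKM in leaves and 876 FPKM in inflorescences, and TGG2 at 278 and 383 FPKM. TGG1 and TGG2 thus differed in their ratios from the synthesis genes given here. AOP2, also a synthesis gene, missed the rule as they did.

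Flavonoid genes went both ways, 7 higher and 5 lower of 15 kept, with a median of 0.75. CHS, the first enzyme of the pathway, stood at 567 FPKM in leaves and 592 FPKM in inflorescences and was called neither way. FLS1, the step to flavonols, was 7.89-fold higher at 224 FPKM. DFR and LDOX, the steps to anthocyanins, were lower at 1.96 and 2.62 FPKM against leaf levels of 95.7 and 92.3 FPKM, and PAP1, a MYB activator of anthocyanin genes, stood at 0.417 against 10.2 FPKM. The flavonol regulator MYB111 stood at 29.4 against 2.97 FPKM and UGT79B6, a glycosyltransferase of pollen flavonols, at 11.2 against 0.0101 FPKM. TSM1, a methyltransferase gene of the tapetum, had the highest difference of the list, 454 FPKM against 0.248 FPKM.

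Surface and wall genes leaned to the inflorescence. Of 20 genes of epidermis, cuticle and wax 14 were higher and 2 lower, with a median of 1.78. PDF1, an extracellular protein of the outer cell layer, stood at 3.24 FPKM in leaves and 675 FPKM in inflorescences, and the homeobox genes ML1 and PDF2 of that layer at 15.3 and 26.1 against 34.7 and 65.8 FPKM. The cutin genes DCR and WIN1, an acyltransferase and an activator, were at 311 and 85.7 FPKM against leaf levels of 2.44 and 0.593 FPKM. Lower were KCS1, an elongase of wax fatty acids, at 36.8 against 107 FPKM, and ABCG12, a wax exporter, at 31.9 against 98.8 FPKM. Of 18 genes of secondary walls and xylem 9 reached the floor and 7 were higher, with a median of 1.83, among them the lignin laccase gene LAC4 at 33.7 against 3.90 FPKM and NST1, a NAC switch for wall thickening that also acts in anthers, at 6.86 against 0.0903 FPKM. All 6 kept genes of flower volatiles and nectaries were higher, led by the sesquiterpene synthase AT5G44630 at 40.0 against 0.184 FPKM.

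Stomatal genes went both ways. Of 13 kept, 6 were higher and 5 lower, and 2 were lower after upper quartile scaling. Among the higher genes were SPCH, which starts the stomatal lineage, at 8.70 against 0.228 FPKM, TMM, a receptor that spaces stomata, at 20.4 against 1.37 FPKM, and ERL1, a receptor kinase, at 20.4 against 0.243 FPKM. Among the lower genes were the potassium channel gene KAT1 at 9.14 against 42.4 FPKM, the anion channel gene SLAC1 at 1.88 against 8.59 FPKM, MYB60 at 3.71 against 9.26 FPKM and FAMA, which ends the divisions, at 6.17 against 13.6 FPKM. In the trichome list 8 of 16 genes reached the floor, 3 were higher and 2 lower. ZFP8, a zinc finger activator of trichomes, was lower at 1.82 against 52.7 FPKM and TCL1, a small MYB repressor, higher at 24.3 against 1.03 FPKM. The median of -0.69 turned to 0.70 when the columns were given the same sum.

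Flowering-time genes also lay on both sides, 6 higher and 8 lower of 23 kept. Among all kept genes 21.0% were higher and 23.2% lower, not far from these shares. The list median of -0.29 turned to 0.12 after upper quartile scaling. FT (AT1G65480), the mobile flowering signal made in leaf veins, stood at 41.1 FPKM in leaves and 9.45 FPKM in inflorescences, and its relative TSF at 12.8 and 1.84 FPKM. SVP, a MADS repressor of flowering, stood at 85.7 FPKM in leaves, 4.29 FPKM in inflorescences and 81.9 FPKM in day-0 apices, and SOC1, an integrator of flowering signals, at 207, 37.2 and 203 FPKM. The repressor genes of the AP2 and RAV type TEM2 and SNZ stood at 125 and 20.9 FPKM in leaves and 2.96 and 0.101 FPKM in inflorescences. Higher were SPL9 and SPL15, activators that microRNA156 restrains in young plants, at 65.2 and 17.5 FPKM against leaf levels of 5.89 and 0.431 FPKM. FLC, a repressor silenced by cold, stood at 7.31 FPKM in inflorescences and 0.131 FPKM in leaves. FD, the partner of FT in the apex, missed the rule at 3.28 against 7.52 FPKM while day-0 apices held 159.9 FPKM.

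Few clock genes were called. Of 17, 14 reached the floor, 4 were lower, a share near that of all kept genes, and none higher, with a median of -0.78. After upper quartile scaling 1 was lower and the median was -0.38. The lower ones were ELF4 at 33.9 against 115 FPKM, PRR7 at 32.9 against 81.9 FPKM, CHE at 23.9 against 55.9 FPKM and GI at 15.9 against 33.2 FPKM.

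Hormone genes were mixed. Of 18 kept auxin genes 10 were higher and 4 lower, or 2 lower after upper quartile scaling, with a median of 1.44. MP, an auxin response factor that starts flower primordia, stood at 50.1 against 3.64 FPKM, GH3.3, which conjugates auxin, at 34.5 against 3.90 FPKM, and TAA1, a synthesis enzyme, at 22.6 against 2.44 FPKM. The efflux carrier gene PIN3 was lower at 15.5 against 66.7 FPKM. IAA29, an early auxin-response repressor, was lower at 0.497 against 30.2 FPKM. Of 15 kept gibberellin genes 7 were higher and 3 lower, with a median of 0.32. The DELLA repressor RGL2 stood at 48.4 against 1.37 FPKM and the synthesis gene GA20OX2 at 6.09 against 0.0503 FPKM, while the catabolic gene GA2OX6 was lower at 4.06 against 39.5 FPKM. Lower too were the receptor genes GID1B and GID1C at 5.84 and 10.3 FPKM against leaf levels of 25.1 and 23.1 FPKM.

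Among 10 reference genes 8 were called neither way, with a median of -0.05 that moved to 0.38 under upper quartile scaling. PP2AA3, a phosphatase subunit gene, stood at 40.6 FPKM in leaves and 38.2 FPKM in inflorescences, and AT2G28390 of the SAND family at 32.5 and 32.3 FPKM. The 2 exceptions were ACT2, a vegetative actin, at 645 and 196 FPKM, and UBQ10, a polyubiquitin gene, at 1401 and 438 FPKM. ACT7, the actin of young growing tissue, stood at 437 and 431 FPKM. The reference genes as deposited thus sat nearer to 0 than after that scaling.

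**Figure D3:**
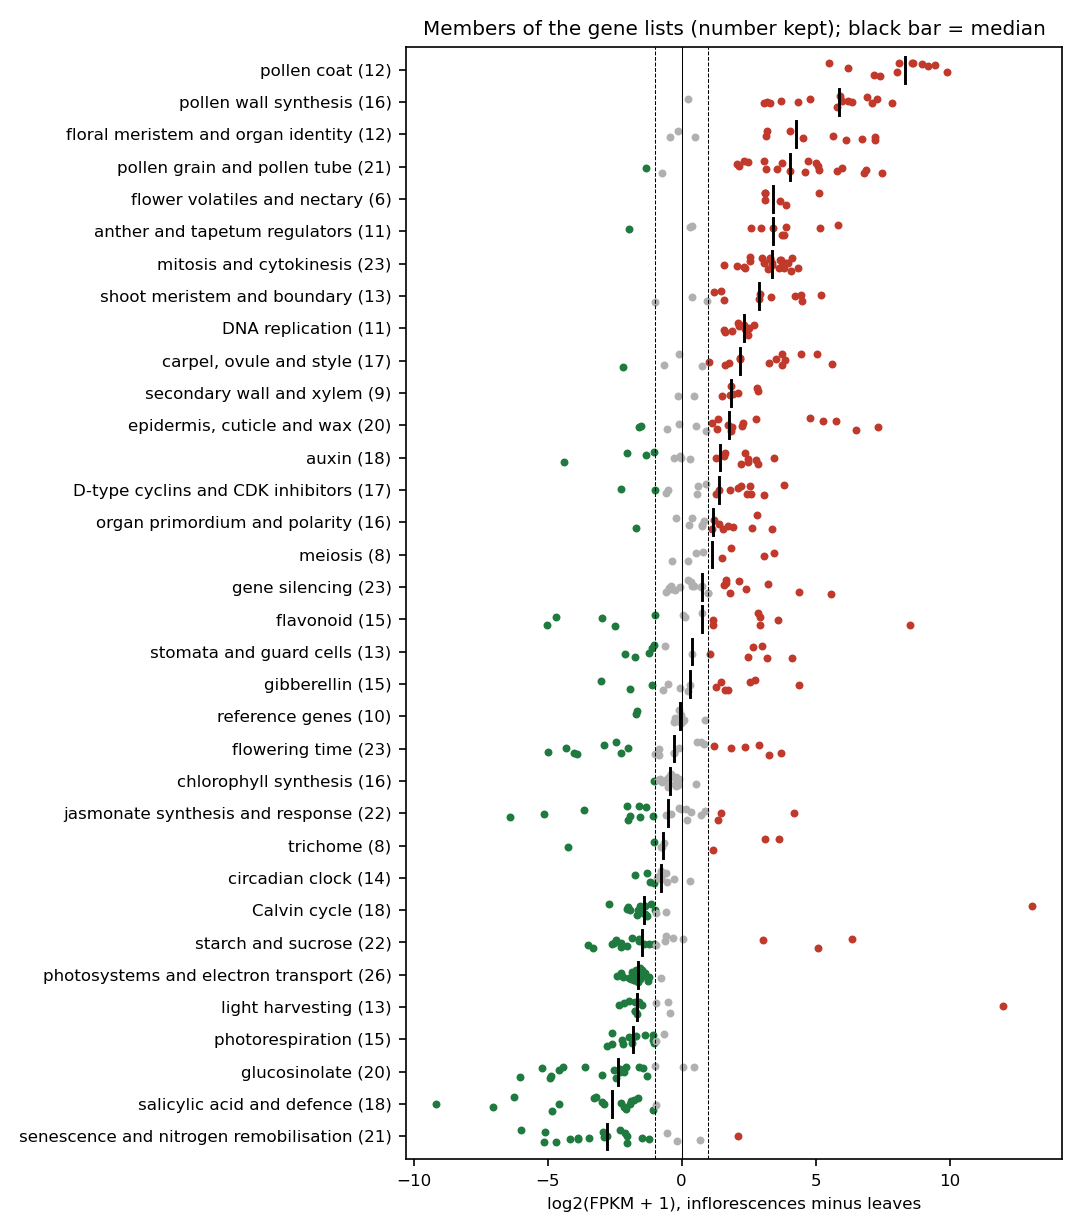
Difference in log2(FPKM + 1), inflorescences minus leaves, of the kept members of 34 gene lists, with the number kept after each name and the median as a black bar. Red points are called higher, green lower, grey neither, and the dashed lines mark the rule. Pollen coat genes lie furthest to the right with a median of 8.34 and senescence genes furthest to the left with -2.78; the lone points near 12 and 13 are LHCB1.3 and RBCS1A, listed at 0 in leaves.

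Over the 35 lists together 543 different genes were kept, of which 227 were higher and 179 lower. Of all kept genes 21.0% were higher and 23.2% lower. The listed genes were chosen with earlier results of these data known, so their larger shares are no result. Of the list medians beyond 1 in either direction, that of the Calvin cycle came inside -1 under another scaling.

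Gene families were also read from RefSeq product names, over all kept genes. Of 234 families with at least 10 kept genes, 33 had a median of 1 or more and 24 a median of -1 or less. The lowest median was that of the cysteine-rich receptor-like kinases, at -3.44, with 22 of 23 lower and none higher. CRK7 stood at 73.0 FPKM in leaves and 0.192 FPKM in inflorescences, CRK18 at 55.5 and 0.472 FPKM and CRK41 at 72.4 and 1.60 FPKM, and CRK29 was the member called neither way. Of 41 intracellular immune receptors of the TIR class 34 were lower and of 13 of the CC class 12, with none higher in either. RPP8, a resistance gene against downy mildew in Ler, stood at 54.6 against 10.4 FPKM. Of 31 WRKY factors, which act downstream of such receptors, 24 were lower and none higher, led by WRKY26 at 66.4 against 0.393 FPKM. Of 28 receptor-like proteins 20 were lower and 2 higher, with RLP23, which senses a microbial peptide, at 121 against 0.403 FPKM and RLP29 on the other side at 0.523 against 39.1 FPKM. Of 15 tau-class glutathione S-transferases 12 were lower, and of 16 CYP71B cytochromes 13.

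The highest median, 5.26, was that of low-molecular-weight cysteine-rich proteins, which are small and secreted. Of these 16 genes 15 were higher and none lower. All 10 kept members of the self-incompatibility S1 family were higher, led by AT2G04115 at 41.5 against 0.0287 FPKM. Of 15 RALF peptides, which signal to receptor kinases at the cell wall, 11 were higher, with the pollen peptide genes RALFL8 and RALFL9 at 181 and 224 FPKM against leaf levels of 1.04 and 1.91 FPKM. RALFL33 was the member called lower, at 43.2 against 183 FPKM. Pectin lyase-like proteins, which cut or soften pectin, had 30 of 50 higher and 4 lower, and invertase and pectin methylesterase inhibitors 21 of 27 higher and 2 lower. Of 47 lipid-transfer and 2S-albumin-like proteins 31 were higher and 10 lower, the extremes being AT1G66850 at 2009.9 against 1.17 FPKM and AT5G05960 at 1.15 against 48.0 FPKM.

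Transcription factor families on that side were the MADS proteins with K-box in their product name, with 12 of 16 higher and SVP the 1 lower. Genes with AGAMOUS product names formed a separate family, with 3 of 14 higher, 4 lower and a median of -0.20. That is near the shares of all kept genes, 21.0% higher and 23.2% lower. The AP2/B3-like proteins had 15 of 21 higher and none lower. SQUAMOSA promoter-binding proteins had 6 of 11 higher and none lower, with SPL8, which acts in pollen sac formation, at 40.3 against 0.0815 FPKM. LOB-domain factors were split, with 7 of 13 higher and 5 lower. LBD2 and LBD20 stood at 54.9 and 43.6 FPKM against leaf levels of 0.0278 and 0.00975 FPKM, and LBD1 at 0.151 against 66.3 FPKM. Histones, which package newly made DNA, had 18 of 28 higher, although near-identical copies make single values uncertain. AT5G10400 stood at 246 against 34.2 FPKM. Ribosomal proteins were grouped by words in their product names after the counts were seen. Those without a word for an organelle had 192 of 299 higher and 8 lower with a median of 1.24. Those whose names held such a word, or 30S or 50S, had 3 higher and 1 lower of 17. Organelle proteins whose names lack such words would be counted among the 299, so the groups do not separate organelle from cytosol.

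**Figure D4:**
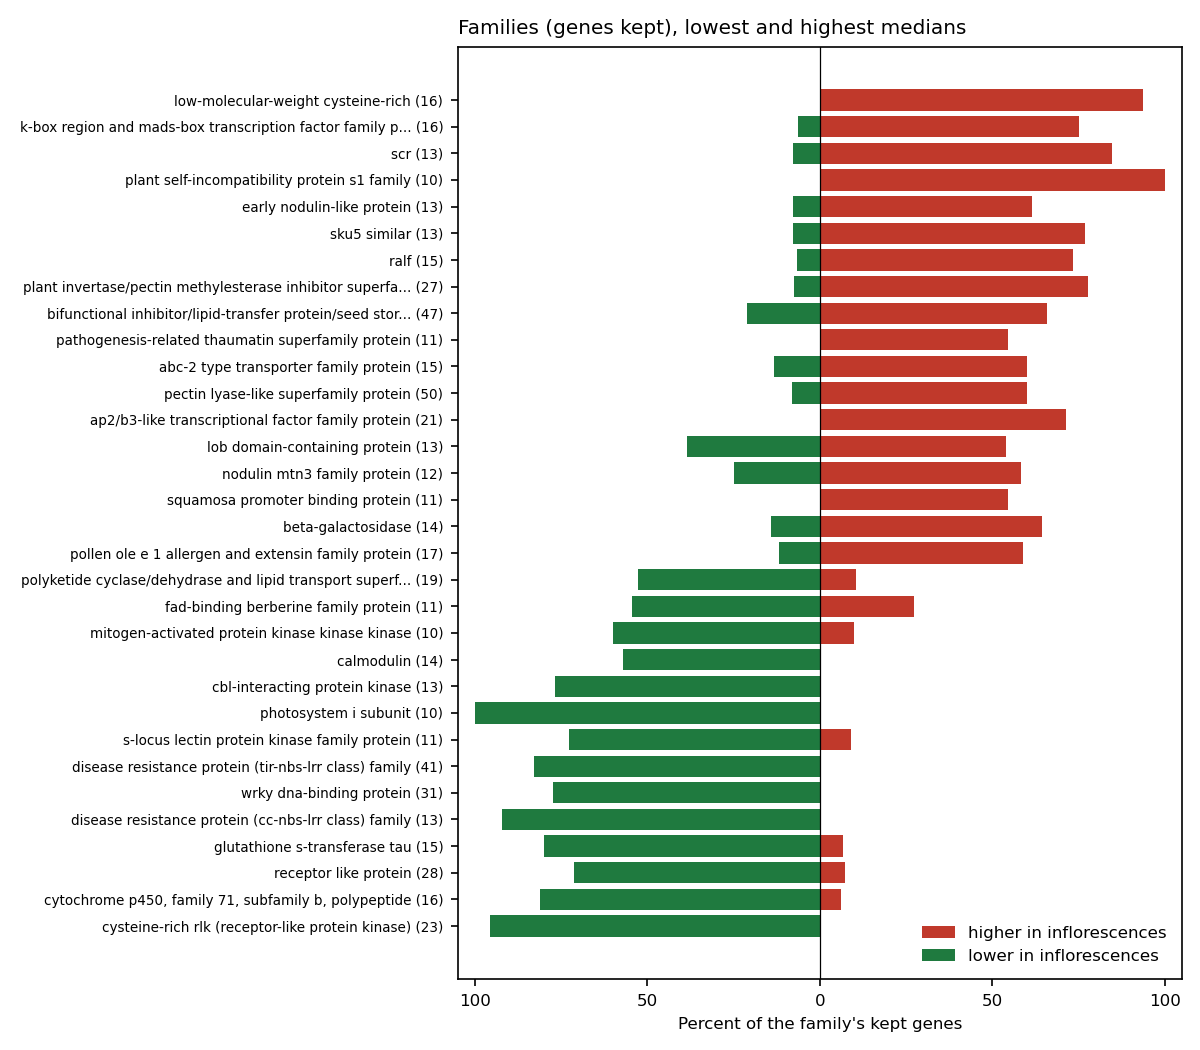
Percent of the kept genes of each family called higher (red, to the right) or lower (green, to the left) in inflorescences, for the families with the lowest and the highest medians among those with at least 10 kept genes, named by RefSeq product with the number kept; 2 groupings whose product text names no family are left out. Cysteine-rich receptor-like kinases (22 of 23 lower) are at the bottom and low-molecular-weight cysteine-rich proteins (15 of 16 higher) at the top.

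The genes with the largest differences were examined next. At 16-fold or more on the log scale 532 genes were higher, 2.94% of those kept, and 346 lower, 1.91%. After RBCS1A and LHCB1.3 the highest differences were those of AT2G20870, a cell wall protein precursor, at 2241 against 0.698 FPKM, and GRP19. AT1G66850 and the pollen coat genes LTP12, GRP17 and ATA27 followed, with AT5G22430, of the Ole e 1 allergen and extensin family, at 822 against 0.236 FPKM. AT5G33370, a GDSL-type lipase gene, stood at 653 against 0.310 FPKM and AT5G44540, of a tapetum-specific protein family, at 1041 against 1.79 FPKM.

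Below PR2 on the other side came AT1G64360 and AT1G30250, both uncharacterised, at 992 and 1065 FPKM in leaves and 2.01 and 3.06 FPKM in inflorescences. The glutathione S-transferase genes GSTF7 and GSTF6, of detoxification and defence, stood at 611 and 1791 against 1.54 and 15.0 FPKM. PCR1, a cadmium resistance protein of the plasma membrane, stood at 1418 against 5.32 FPKM. PLA2A, a lipid acyl hydrolase induced by pathogens, stood at 448 against 2.55 FPKM, and TIP2;2, a water channel of the vacuole, at 895 against 7.35 FPKM. AT5G52740, a copper transport protein gene, and AT1G58225, uncharacterised, stood at 259 and 288 against 0.215 and 1.19 FPKM.

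The most abundant leaf gene was MT1A, a metallothionein that binds metal ions, at 29338 FPKM in leaves and 1462 FPKM in inflorescences, over an annotated length of only 138 nt that makes its FPKM uncertain. MT3, of the same class, stood at 11962 and 1331 FPKM and MT2B at 5799 and 3134 FPKM, so these 3 metallothionein genes differed in their ratios. In inflorescences RBCS1A was followed by AT2G40205, a ribosomal protein L41 gene, at 8484 FPKM against 1382 FPKM in leaves.

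Levels of the called genes in the apices are described next. The matching shares over all kept genes were not counted, so sharing with meristem-rich tissue cannot be read from them. The 3807 higher genes had median levels of 2.57 FPKM in leaves, 18.9 FPKM in inflorescences and 14.0 and 14.4 FPKM in the apices at day 0 and day 2. Of these genes 65.0% had at least 5 FPKM in both groups of apices and 23.5% were below 1 FPKM in both. Among the 532 genes of the 16-fold class 61.8% were below 1 FPKM in both. The 4203 lower genes had medians of 52.0 FPKM in leaves, 11.7 FPKM in inflorescences and 9.12 and 7.95 FPKM in the apices, and 57.0% of them had at least 5 FPKM in both. Below 1 FPKM in both were 17.5% of the lower genes and 50% of the 346 genes of the 16-fold lower class. Genes near 0 in the apices thus made up a larger share of the 16-fold class in both directions.

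Called genes also differed in structure and position. The median annotated transcript length was 1708 nt over all kept protein-coding genes, 1210 nt in the 16-fold higher class and 1433 nt in the 16-fold lower class. Single-exon genes made up 14.2% of all kept genes, 17.2% of the higher, 21.2% of the lower and 10.3% of those called neither way. Neighbours on the chromosome shared their call more often than the kept genes at large. A kept neighbour of a higher gene was itself higher in 25.4% of 5116 cases, against 21.0% of kept protein-coding genes, and a neighbour of a lower gene was lower in 29.5% of 5510 cases, against 22.9%. Neighbours can be tandem copies that share reads.

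Runs of at least 4 adjacent genes differing 4-fold in the same direction, which 10.9% of kept genes did upwards and 10.2% downwards, numbered 7 higher and 11 lower, and those described here were chosen after their values were seen. The longest was on chromosome 4, where 7 adjacent genes from CRK5 to CRK11, cysteine-rich receptor-like kinases, were all lower, with leaf levels up to 250.9 FPKM and inflorescence levels up to 32.3 FPKM. CRK15 and 5 genes next to it and CRK21 to CRK24 formed 2 more runs on the same chromosome. IGMT1 to IGMT4, methyltransferases of indole glucosinolates on chromosome 1, formed a run of 4 with inflorescence levels of at most 3.45 FPKM. On the higher side GRP14, GRP18, GRP17 and GRP16 on chromosome 5 and EXL4, AT1G75920, EXL6 and ATA27 on chromosome 1 were runs of pollen coat genes, with leaf levels of at most 0.260 and 0.265 FPKM. The longest higher run held 6 genes from AT1G23560 to AT1G23610, with levels up to 157.5 FPKM in inflorescences and 0.602 FPKM in leaves.

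Motif matches over all called genes were less marked than in the division lists. Site II, TGGGCC, was in 16.8% of 3676 promoters of higher genes and 10.7% of 4006 promoters of lower genes. It was in 17.1% of promoters of all kept genes and in 19.8% of those called neither way, so higher genes did not exceed the kept genes. In the 16-fold higher and lower classes it was in 8.38% and 4.72%. The telo-box, AAACCCTA, known from ribosomal protein genes, was in 4.82% of higher and 1.72% of lower promoters, against 3.57% of kept genes. The evening element, AAATATCT, a motif of clock-regulated genes, was in 4.73% of higher and 6.74% of lower promoters, against 5.16% of kept genes. The G-box, CACGTG, was in 6.49% of all promoters and the W-box, TTGACC, in 12.2% of them. The W-box core, TTGAC, which is contained in the W-box and which WRKY factors bind, was in 42.9% of higher, 49.7% of lower and 57.9% of 16-fold lower promoters, against 44.9% of all. These shares describe letters in a fixed window and do not show binding.

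**Figure D5:**
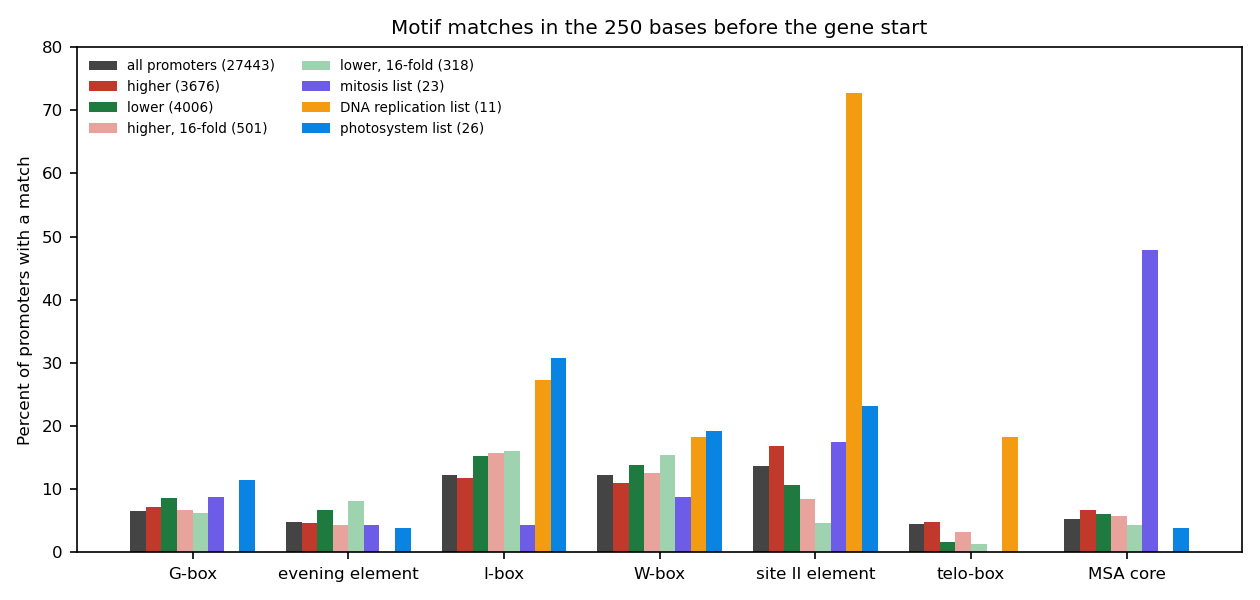
Percent of promoters, defined as the 250 bases before the gene start, that hold at least 1 match to each motif on either strand, for all promoters, for called genes, for the 16-fold classes and for 3 lists, with the number of promoters in the legend. The mitosis list stands at 47.8% for the mitosis-specific activator (MSA) core against 5.28% of all promoters, and the replication list at 72.7% for site II against 13.7%.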

How the data were processed

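RNA was measured in 12 stranded, poly(A)-selected libraries, 3 per group. CASAVA 1.8.2, Bowtie2 2.1.0, TopHat2 2.0.10, Cufflinks 2.1.1 and the TAIR10 genome are named in the submitters' processing notes. Whether the counting used strand is not given in the sources used here. The FPKM values were computed and the 3 libraries of each group merged by the authors before they were deposited as 1 table, which has 1 column per group. That the unit is FPKM was inferred from the named tools and the values, and the depth behind each value is unknown. For the table of 34133 rows, 567 repeated identifiers were summed. The measure was log2(FPKM + 1), inflorescences minus leaves, for genes of at least 5 FPKM in either organ, and a difference of 1 was the rule of size. Other pseudocounts, floors and scalings were tried as alternatives.

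The genes named are the 15 highest and 15 lowest protein-coding differences, the 10 highest genes listed at 0 in either organ, the 5 most abundant genes of each organ, up to 8 members of each list in list order with the 3 largest differences in each direction, the 3 largest per family in each direction, and markers, with genes without a symbol left out in part. The gene lists and members were chosen with earlier results of these data known. Names, products and promoters are from RefSeq TAIR10.1, which matched 17987 of the 18103 genes. Python 3.11.15, numpy 2.4.6, pandas 2.3.3 and matplotlib 3.10.9 were used.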

Additional observations from a re-analysis of the deposited data

How the results depend on the processing

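Between 2849 and 5381 genes were higher under all alternatives except a floor of 20 FPKM, which left 1838 higher genes among the fewer genes kept and 35.9% of the calls on the higher side, and the cause of that shift was not tested. Scaling by the upper quartile gave 65.0% on the higher side and columns of equal sum gave 65.8%, with 2781 lower genes under the latter. With another pseudocount (0.1 or 5), a floor of 1 FPKM or none, or without genes listed at 0, an alternative chosen after seeing the data, the share lay between 44.9% and 53.6%, and median ratio scaling gave 55.5%. Upper quartile, median ratio and equal-sum scaling moved the median of all kept genes from -0.09 to 0.35, 0.11 and 0.38. The list medians whose sign a scaling turned were those of chlorophyll synthesis, flowering time, reference genes and trichomes. Over the 35 lists and all alternatives, a list median moved by less than 1.5-fold in 342 cases and by more in 42. Under upper quartile scaling the lower genes numbered 9 in place of 15 in the Calvin cycle list, 1 in place of 4 for the clock, 2 in place of 5 for stomata and 2 in place of 4 for auxin, and the higher genes 5 in place of 3 for jasmonate. The 2 kept root genes gave no value at a floor of 20 FPKM.

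No paired analysis was possible because the table holds merged values without replicates. No library was left out for the same reason. Depth is unknown, so low values carry no interval.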

Other observations

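Some families not described above had members far on both sides. Beta-galactosidases, which trim galactose from wall polymers, had 9 of 14 kept genes higher and 2 lower. BGAL7, BGAL11 and BGAL15 stood at 87.8, 70.7 and 33.8 FPKM in inflorescences against 0.115, 0.629 and 0.0223 FPKM in leaves, whereas BGAL4 stood at 19.5 against 625 FPKM. Sugar transporters of the SWEET type had 7 of 12 higher and 3 lower, with SWEET10 at 118 and SWEET3 at 48.6 FPKM in inflorescences against 1.07 and 0.0208 FPKM in leaves. Transporters of the ABC-2 class had 9 of 15 higher and 2 lower. ABCG26, which exports sporopollenin precursors from the tapetum, stood at 54.5 FPKM and was listed at 0 in leaves, and ABCG22, known from the control of stomatal water loss, stood at 15.4 against 189 FPKM. In the Ole e 1 allergen and extensin family 10 of 17 were higher and 2 lower, the neighbours AT3G16660 and AT3G16670 standing at 54.2 and 133 FPKM in leaves and 0.0450 and 2.56 FPKM in inflorescences.

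Of 14 calmodulin and calmodulin-like genes 8 were lower and none higher, and of 19 calcium-dependent protein kinases 7 were lower and 2 higher. Among 30 calcium-dependent lipid-binding proteins 9 were lower and 8 higher, near the 23.2% and 21.0% of all kept genes. CML41 and CML38, calcium sensors that stress induces, stood at 65.0 and 253 FPKM in leaves and 2.34 and 16.1 FPKM in inflorescences, while CAM7 and CAM1, conserved calmodulins, stood at 114 and 295 against 210.4 and 348 FPKM. Of 13 CBL-interacting protein kinases, which respond to calcium sensors, 10 were lower and none higher, with CIPK21 at 9.52 against 92.4 FPKM. SKU5-similar proteins, of the multicopper oxidase type, had 10 of 13 higher, with sks13 at 352 against 3.11 FPKM, and sks9 was the 1 lower at 2.45 against 7.70 FPKM. Of 14 microtubule motor genes 12 were higher and none lower, with HIK, a kinesin of cell plate expansion, at 21.1 against 0.700 FPKM.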
